A study of Mus musculus with 12 samples.

Results

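The E2F transcription factors E2f1 to E2f8 were measured in the mouse amygdala together with Rb1, a pocket protein that binds members of the family, and Tfdp1, the dimer partner of most of them. These 10 genes were matched by Ensembl identifier and symbol (GENCODE M21) among 47729 genes, each to 1 row, and all 10 passed the filter on low counts. E2f3 was selected on the same libraries, by its change across the anxiety groups, and the other members were added as its family. The group values of E2f3 are therefore a description and not a test. The same holds for the group values of the other members, because the groups themselves were drawn from the expression in these libraries.

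The samples were amygdala biopsies from both sides of the brain of age-matched female C57/BL6 mice, 1 mRNA library per mouse, with no treatment or genetic change. Each mouse was tested once in the elevated plus maze at 9 weeks of age, a light and dark box at 10 weeks and a chamber test with a stranger mouse at 11 weeks. The predicted anxiety state, which the study drew from tertiles of the second principal component of expression, was less anxious in 3 mice (mice 3, 7 and 12), anxious in 4 (mice 1, 4, 8 and 11) and more anxious in 4 (mice 2, 6, 9 and 10). Mouse 5 carried no predicted state, since the study had set this library aside as an outlier of its principal component plot, and it entered only an alternative fit of the behavior measures. The state is thus an inference from RNA and not a direct behavioral score, which limits it as a model. The replicates were separate mice.

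Most E2F proteins bind DNA as dimers with a DP protein such as Tfdp1, and the family sets the transcription of genes for DNA replication and the cell cycle. E2f1, E2f2 and E2f3 are known mainly as activators, and E2f4 to E2f8 mainly as repressors. Rb1 binds the activators and holds them silent until cyclin-dependent kinases phosphorylate it, and in neurons that no longer divide this axis is best known for keeping cells out of the cycle and for a part in cell death.

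Totals ran from 31745630 to 45142355 estimated reads per mouse, with reads in 26378 to 28196 genes and 10.6% to 15.9% of reads on mitochondrial genes. The amygdala label was read against marker genes. In CPM (counts per 1000000 counts of the library, scaled by TMM factors), Slc17a7 of excitatory neurons lay at 678 to 1396 and Gad1 of inhibitory neurons at 282 to 420. Rspo2, used as a marker of the basolateral amygdala, lay at 5.70 to 17.3, and Prkcd, used for the central amygdala, at 7.96 to 23.6. These values show that the markers were detected and not how much of each nucleus was sampled. Markers of dividing cells were low, with Mki67 at 1.06 to 2.23 and Top2a at 0.569 to 2.11.

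Because E2F genes are themselves known E2F targets, the sequence at their starts was read first. Promoter windows of 300 bases (250 before and 50 after the start of transcription) came from RefSeq on GRCm38.p6, where 7 of the 10 members matched: E2f1, E2f2, E2f3, E2f6, E2f7, E2f8 and Tfdp1. No window was used for E2f4, E2f5 or Rb1. The octamers of the E2F site searched on both strands were TTTCCCGC, TTTCGCGC, TTTGCCGC and TTTGGCGC, whose reverse complements are GCGGGAAA, GCGCGAAA, GCGGCAAA and GCGCCAAA. An octamer was present for 4 of the 7 members, E2f2, E2f3, E2f7 and Tfdp1. The only window of E2f1 (chr2:154569377-154569676, minus strand) lay inside the gene, which ends at 154569892 in GENCODE M21, so the sequence before that outer start was not searched. Of all 32851 windows, 2.26% held one, and of all 27025 genes, 2.61% did in at least 1 window. Among genes of DNA replication and S phase, 10 of 23 with a window held one. For E2f3, E2f2, E2f7 and Tfdp1, a window that held an octamer is printed with the octamer in capitals. Whether a match goes with the group values of a member was not tested.
E2f3, chr13:29986014-29986313, minus strand: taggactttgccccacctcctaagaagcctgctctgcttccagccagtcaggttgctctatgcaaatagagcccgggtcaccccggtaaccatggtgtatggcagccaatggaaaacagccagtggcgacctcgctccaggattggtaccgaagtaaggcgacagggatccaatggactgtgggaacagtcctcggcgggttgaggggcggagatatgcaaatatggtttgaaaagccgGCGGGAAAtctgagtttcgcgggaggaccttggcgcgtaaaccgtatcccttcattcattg
E2f2, chr4:136172024-136172323, plus strand: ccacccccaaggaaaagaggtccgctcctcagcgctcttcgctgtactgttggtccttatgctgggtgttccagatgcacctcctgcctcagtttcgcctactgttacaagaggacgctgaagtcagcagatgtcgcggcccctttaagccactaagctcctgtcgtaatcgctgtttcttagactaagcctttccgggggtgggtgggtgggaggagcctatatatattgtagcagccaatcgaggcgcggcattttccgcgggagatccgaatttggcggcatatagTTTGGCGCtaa
E2f7, chr10:110745189-110745488, plus strand: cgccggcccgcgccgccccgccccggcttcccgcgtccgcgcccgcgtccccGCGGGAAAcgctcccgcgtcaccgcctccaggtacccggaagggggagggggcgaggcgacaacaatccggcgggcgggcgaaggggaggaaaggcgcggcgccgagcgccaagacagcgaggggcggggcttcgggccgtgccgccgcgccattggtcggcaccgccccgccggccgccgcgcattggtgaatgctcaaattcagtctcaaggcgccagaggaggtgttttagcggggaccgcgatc
Tfdp1, chr8:13338501-13338800, plus strand: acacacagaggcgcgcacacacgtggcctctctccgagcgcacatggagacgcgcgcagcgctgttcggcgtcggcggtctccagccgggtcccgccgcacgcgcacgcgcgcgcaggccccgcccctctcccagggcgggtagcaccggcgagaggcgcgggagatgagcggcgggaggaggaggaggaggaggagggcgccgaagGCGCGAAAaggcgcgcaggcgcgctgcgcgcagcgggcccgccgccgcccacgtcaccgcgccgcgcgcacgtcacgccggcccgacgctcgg
Counted from the first transcribed base as 0, with bases before it negative, the octamer began at -11 in E2f3, -43 in Tfdp1 and -198 in E2f7, and at 39 in E2f2. A second, overlapping window of Tfdp1 held the same octamer, and a second window of E2f2 held none. E2f3 has a second RefSeq start further into the gene, the start of its shorter form, whose window is printed because it held none of the 4 octamers.
E2f3 inner start, chr13:29984342-29984641, minus strand: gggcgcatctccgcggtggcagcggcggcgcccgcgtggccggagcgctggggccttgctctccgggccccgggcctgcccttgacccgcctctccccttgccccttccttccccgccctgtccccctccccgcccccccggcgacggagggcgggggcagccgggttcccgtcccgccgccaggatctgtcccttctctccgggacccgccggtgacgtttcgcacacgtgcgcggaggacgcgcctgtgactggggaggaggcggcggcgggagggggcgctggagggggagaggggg
The estimated counts were summed per gene, so the forms from both starts of E2f3 entered 1 value and could not be told apart. A match describes letters in the window and says nothing about binding in these mice.

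All 10 members were detected in every mouse, at very different depths. Tfdp1 had 1363 to 2038 reads per mouse, Rb1 781 to 1652, E2f6 718 to 1021, E2f4 572 to 866, E2f3 412 to 2686, E2f5 310 to 507 and E2f1 215 to 474. E2f7 had 40 to 300 reads, E2f2 8 to 108 and E2f8 8 to 27, so single values of the last 3 are imprecise. Per length, as mean CPM per kilobase of exon ± SD over the 11 mice, the order was Tfdp1 at 11.5 ± 0.67, E2f4 at 7.58 ± 0.60, E2f3 at 6.33 ± 3.85, E2f5 at 5.95 ± 0.74, Rb1 at 5.26 ± 1.13, E2f6 at 4.07 ± 0.24 and E2f1 at 2.65 ± 0.45. The remaining members stood far lower, E2f7 at 0.308 ± 0.17, E2f2 at 0.193 ± 0.18 and E2f8 at 0.0789 ± 0.026. Mean ± SD of E2f3 overlapped with that of E2f4, E2f5, Rb1, E2f6 and E2f1. It also overlapped for Rb1 with E2f5 and E2f6, and for E2f2 with E2f7 and E2f8. The order per length within single mice was not compared. The members also differed in their spread between mice. The highest mouse had 1.25 times the CPM of the lowest for E2f4, 1.18 times for E2f6 and 1.21 times for Tfdp1, against 7.03 times for E2f3, 15.5 times for E2f2 and 6.12 times for E2f7.

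Among the activators, E2f3 (ENSMUSG00000016477, chr13:29906575-29986063, minus strand, GRCm38) carried most of the reads and most of the difference between mice. In CPM, E2f3 was 11.4 in mouse 3, 13.9 in mouse 7 and 23.2 in mouse 12 of the less anxious group. In the anxious group it was 15.9 in mouse 1, 46.2 in mouse 4, 32.1 in mouse 8 and 22.5 in mouse 11, and in the more anxious group 53.9 in mouse 2, 80.5 in mouse 6, 31.8 in mouse 9 and 47.0 in mouse 10. Every more anxious mouse stood above every less anxious mouse, the anxious mice spanned the gap and overlapped both groups, and mouse 6 was highest. The group means were 16.2 ± 6.19 (SD, n = 3), 29.2 ± 13.2 (SD, n = 4) and 53.3 ± 20.4 CPM (SD, n = 4), a ratio of more to less anxious of 3.30. The fitted log2 fold change with the first principal component as covariate was 1.49 ± 0.38 (SE) for more against less anxious and 0.61 ± 0.37 for anxious against less anxious. Without mouse 7 the former was 1.01. In such bulk tissue, fewer cells of a type and less RNA per cell cannot be told apart.

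E2f2, the activator best known from blood and immune cells, was 0.472, 0.427 and 0.208 CPM in less anxious mice 3, 7 and 12. It was 0.489, 0.473, 0.954 and 1.06 in anxious mice 1, 4, 8 and 11, and 1.59, 3.24, 1.20 and 0.278 in more anxious mice 2, 6, 9 and 10. Mouse 6 was highest, as for E2f3, but more anxious mouse 10 lay within the less anxious range, so the groups overlapped. The ratio of the means was 4.27 and the fitted log2 fold change 1.82 ± 0.67 (SE), at 8 to 108 reads per mouse.

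E2f1, the founding activator and a known inducer of apoptosis, lay at 7.42, 9.99 and 8.26 CPM in less anxious mice 3, 7 and 12. In anxious mice 1, 4, 8 and 11 it was 9.02, 7.62, 7.90 and 6.49, and in more anxious mice 2, 6, 9 and 10 6.14, 8.87, 10.7 and 9.57. The groups overlapped, and more anxious mice held both the lowest and the highest value. The fitted log2 fold change was 0.04 ± 0.19 (SE).

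**Figure D1:**
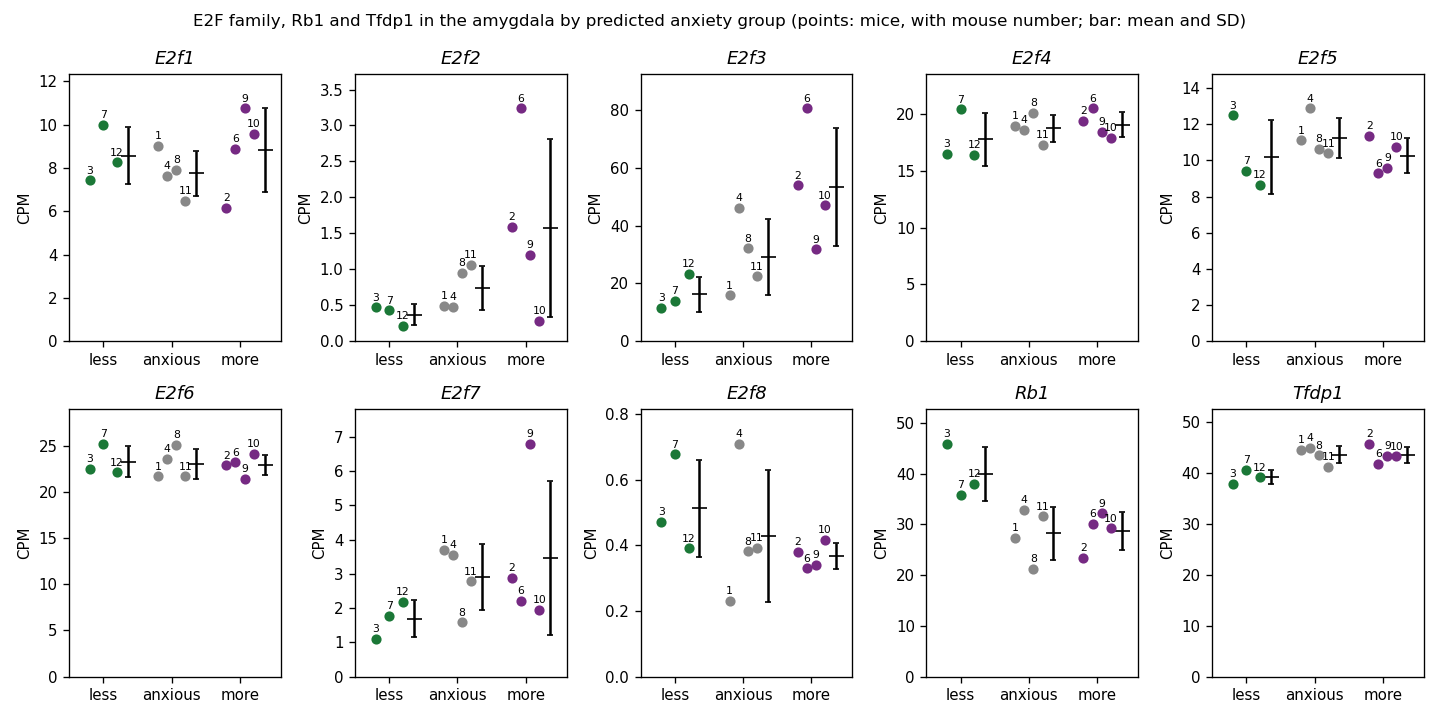
Expression of each member in CPM (vertical axes, each from 0) by predicted anxiety group, with 1 point per mouse labelled by its number and the group mean with SD as a bar. E2f3 and Tfdp1 in the more anxious mice lie above, and Rb1 below, every less anxious mouse, while E2f1, E2f4, E2f5 and E2f6 overlap throughout.

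The classical repressors E2f4 and E2f5 varied less between mice than E2f3. E2f4, the main E2F of resting cells, was 16.5, 20.4 and 16.4 CPM in less anxious mice 3, 7 and 12, 19.0, 18.6, 20.1 and 17.3 in anxious mice 1, 4, 8 and 11, and 19.4, 20.5, 18.4 and 17.9 in more anxious mice 2, 6, 9 and 10. The groups overlapped, with a fitted log2 fold change of 0.07 ± 0.10 (SE). E2f5, which like E2f4 binds the pocket proteins p107 and p130, ran from 8.65 to 12.9 CPM. Its group means were 10.2 ± 2.04 (SD, n = 3), 11.3 ± 1.1 (n = 4) and 10.3 ± 0.973 (n = 4), with a ratio of 1.01 that became 0.990 in CPM without TMM factors. E2f5 shares 26 exon bases with 1810022K09Rik on the other strand, which averaged 24.6 CPM in less anxious, 29.7 in anxious and 33.5 in more anxious mice, and E2f5 is uncertain to that extent.

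E2f6, a repressor that acts in a polycomb-type complex without Rb1, lay at 21.4 to 25.2 CPM in the 11 mice. Its means were 23.3 ± 1.69 (n = 3), 23.0 ± 1.66 (n = 4) and 22.9 ± 1.11 (n = 4), with overlap throughout, a fitted log2 fold change of -0.05 ± 0.10 (SE) and a coefficient of variation of 5.80%. The same coefficient was 5.82% for Tfdp1 and 60.8% for E2f3.

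The atypical repressors E2f7 and E2f8 bind DNA without a DP partner. E2f7 was 1.11, 1.78 and 2.19 CPM in less anxious mice 3, 7 and 12. It was 3.71, 3.55, 1.58 and 2.78 in anxious mice 1, 4, 8 and 11 and 2.89, 2.22, 6.80 and 1.95 in more anxious mice 2, 6, 9 and 10. Mouse 9 stood well above the rest, and mouse 10 lay inside the less anxious range. The fitted log2 fold change was 1.04 ± 0.44 (SE), and it was 0.50 without mouse 9 and 0.67 without mouse 3. E2f8 stayed between 0.230 and 0.710 CPM, with overlapping groups and a log2 fold change of -0.52 ± 0.37 (SE) on 8 to 27 reads. E2f8 and E2f7 share 610 and 86 exon bases with Gm2788 and 1700020G17Rik on the other strand, which were at 0 CPM in all mice and at most 0.030 CPM, respectively.

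Rb1 (ENSMUSG00000022105, chr14:73183673-73325822, minus strand) encodes the retinoblastoma protein, and it was highest in the group where E2f3 was lowest. Rb1 was 45.9, 35.8 and 38.0 CPM in less anxious mice 3, 7 and 12. It was 27.4, 32.9, 21.3 and 31.6 in anxious mice 1, 4, 8 and 11, and 23.4, 30.1, 32.2 and 29.2 in more anxious mice 2, 6, 9 and 10. All 3 less anxious mice lay above the 8 others, and the anxious and more anxious groups overlapped. The means were 39.9 ± 5.32 (SD, n = 3), 28.3 ± 5.23 (n = 4) and 28.8 ± 3.77 CPM (n = 4), with fitted log2 fold changes of -0.42 ± 0.14 (SE) for more against less anxious and -0.44 ± 0.14 for anxious against less anxious. Rb1 exons share 408 bases with Lpar6 and 488 with Rcbtb2, both on the other strand. Lpar6 lay at 2.64 to 4.36 CPM and Rcbtb2 at 18.1 to 27.5 CPM, with means of 4.02 and 23.0 in less anxious against 3.37 and 19.3 in more anxious mice. Whether the counting used the strand is not given in the sources used here, so Rb1 is uncertain to that extent.

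Tfdp1 (ENSMUSG00000038482, chr8:13338751-13378448, plus strand), the dimer partner, was 37.9, 40.6 and 39.1 CPM in less anxious mice 3, 7 and 12. It was 44.6, 44.9, 43.4 and 41.2 in anxious mice 1, 4, 8 and 11, and 45.7, 41.7, 43.4 and 43.2 in more anxious mice 2, 6, 9 and 10. The less anxious mice were the 3 lowest of 11, but the gap was small, with a ratio of means of 1.11 and a fitted log2 fold change of 0.14 ± 0.09 (SE). Tfdp1 with E2f3 higher, and Rb1 lower, were the members without overlap between the more and the less anxious mice, and they remained so with CPM lacking TMM factors and with RLE size factors. Over all 26963 genes tested, 4.49% were higher and 3.91% lower without overlap.

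Summed over the family, the mixture of E2Fs differed in composition between mice. E2f3 made up 20.4% ± 7.01 (SD, n = 3) of the summed CPM of E2f1 to E2f8 in less anxious, 30.0% ± 8.87 (n = 4) in anxious and 43.4% ± 9.38 (n = 4) in more anxious mice. The ranges were 15.8% to 28.5%, 19.6% to 40.6% and 31.7% to 54.3%, so less and more anxious mice did not overlap. The repressors E2f4 to E2f8 summed to 53.4 ± 3.91, 56.3 ± 2.96 and 56.1 ± 0.855 CPM, against 25.1 ± 6.19, 37.7 ± 12.9 and 63.7 ± 20.7 CPM for the activators. The ratio of E2f3 to Rb1 CPM was 0.415 ± 0.18, 1.05 ± 0.47 and 1.89 ± 0.75, from 0.249 in mouse 3 to 2.67 in mouse 6. These sums restate the values of E2f3 and add no separate evidence.

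Across the 3 groups, edgeR's quasi-likelihood test called 0 of the 10 members at an adjusted p under 0.05, against 0.00742% of all genes (2 of 26963). At an unadjusted p under 0.05 it counted 3 members, E2f2, E2f3 and Rb1, against 6.36% of all genes. The likelihood ratio test of DESeq2 called 1 member, E2f3, against 1.30% of the 15107 genes with an adjusted p, and gave no adjusted p for 2 members, E2f2 and E2f8. Since E2f3 and the groups came from these libraries, nothing is read from these counts.

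Summed markers of some other cell types differed between the groups beside these values. The summed CPM of 4 astrocyte genes (Gfap, Aqp4, Aldh1l1 and Slc1a3) was 869 to 1074 in less anxious, 707 to 865 in anxious and 651 to 824 in more anxious mice, with 4 of 4 lower in the more anxious group and no overlap with the less anxious group. Over the 11 mice its correlation with E2f3 was -0.724, the largest in size among the marker lists. The same correlation was -0.614 for microglial, -0.363 for endothelial and 0.371 for general neuron genes. These correlations are a description, since all values share the libraries. Endothelial genes summed to 90.8 to 132, 63.1 to 117 and 62.9 to 82.8 CPM, with 4 of 4 lower and no overlap, and microglial genes to 160 to 194, 144 to 177 and 132 to 166 CPM, with 4 of 4 lower but overlap. Pituitary genes summed to 2.14 to 3.67 CPM in less anxious and 1.11 to 1.63 CPM in more anxious mice, without overlap of the sums. Of these 4 genes, 3 were lower and 1 was higher in the more anxious group, and the sum reached 56.7 CPM in the anxious group. Genes of immature or dividing cells summed to 68.2 to 83.4, 64.1 to 78.0 and 61.2 to 76.1 CPM and overlapped, with 4 of 4 lower in the more anxious group, and the 4 general neuron markers were 4 of 4 higher with overlap. Genes of striatal type neurons summed to 105 to 355, 75.8 to 149 and 65.9 to 212 CPM, with 4 of 4 lower, and of inhibitory neurons to 634 to 759, 564 to 816 and 509.8 to 779 CPM, with 3 of 3 lower, both with overlap. Lists of excitatory neurons, basolateral and central amygdala, oligodendrocytes, their precursors, choroid plexus and red blood cells had markers in both directions. The sums of these lists overlapped between less and more anxious mice. Central amygdala genes summed to 249 to 313 in less anxious, 358 to 463 in anxious and 211 to 489 CPM in more anxious mice. No marker in these lists was at 0 in all 11 mice. Their part in the values of E2f3, Rb1 and Tfdp1 was not tested.

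The behavior measures were recorded without the libraries, but not all were free of the choice of members. The study took the second principal component for its groups because it followed the maze and light box measures, so slopes on those are a description. The box:zone ratios did not set the groups, although they were related to the first component, the covariate of the group fit. Expression of all genes was fitted on each of 7 measures as a standardized number, with slopes in log2 per SD of the measure. No member was called for any measure, by edgeR or by DESeq2, and none reached an unadjusted p under 0.05 in edgeR. At that unadjusted threshold edgeR counted 3.55% of all genes for time in the light, 5.80% for distance, 5.84% for open-arm time, 6.97% for entries, and 7.65%, 6.56% and 8.05% for the ratios at 3, 5 and 10 min. With adjustment, the background was 0.00742% of genes by edgeR and 0.0688% by DESeq2 for the share of time in the light, 0% and 0.127% for the share of distance in the light, 0% and 0.181% for the time on open arms, and 0% and 0.244% for total maze entries. For the box:zone ratio of the chamber test, which the study's methods tie to the time beside the stranger mouse, it was 0.0150% and 0.986% at 3 min, 0.0111% and 0.197% at 5 min, and 0.0223% and 0.580% at 10 min. DESeq2 gave no adjusted p for 1 member at 3 min. The smallest adjusted p of edgeR for a member on a ratio was 0.683. Over all 70 slopes of the main fits the largest ratio of a slope to its SE was 2.03 in size. So few genes were called overall that a missing call does not show that a member was unrelated to behavior.

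In the main fits, with no mouse left out in turn, E2f3 had its steepest slopes on the later box:zone ratios and slopes near 0 on the other measures. On the ratio its slope was -0.49 at 10 min (SE 0.26, adjusted p = 0.683 by edgeR), -0.45 at 5 min (SE 0.26, adjusted p = 0.820) and -0.06 at 3 min (SE 0.36, adjusted p = 0.985, 10 mice, since mouse 4 lacked that ratio). On maze and light box its slope was 0.01 (SE 0.25) for open-arm time, -0.02 (SE 0.26) for maze entries, 0.13 (SE 0.23) for time in the light and -0.03 (SE 0.25) for distance in the light. Mouse 6 had both the highest E2f3 and the highest values of open-arm time (29.2%) and time in the light (46.6%), although its predicted state was more anxious. Without mouse 6 the E2f3 slope was -0.61 (SE 0.18) for time in the light, -0.60 (SE 0.17) for distance and -0.42 (SE 0.21) for open-arm time. Without mouse 3, which had the highest ratio at 10 min (2.62) and the lowest E2f3, the slope was -0.198 at 10 min and -0.199 at 5 min.

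**Figure D2:**
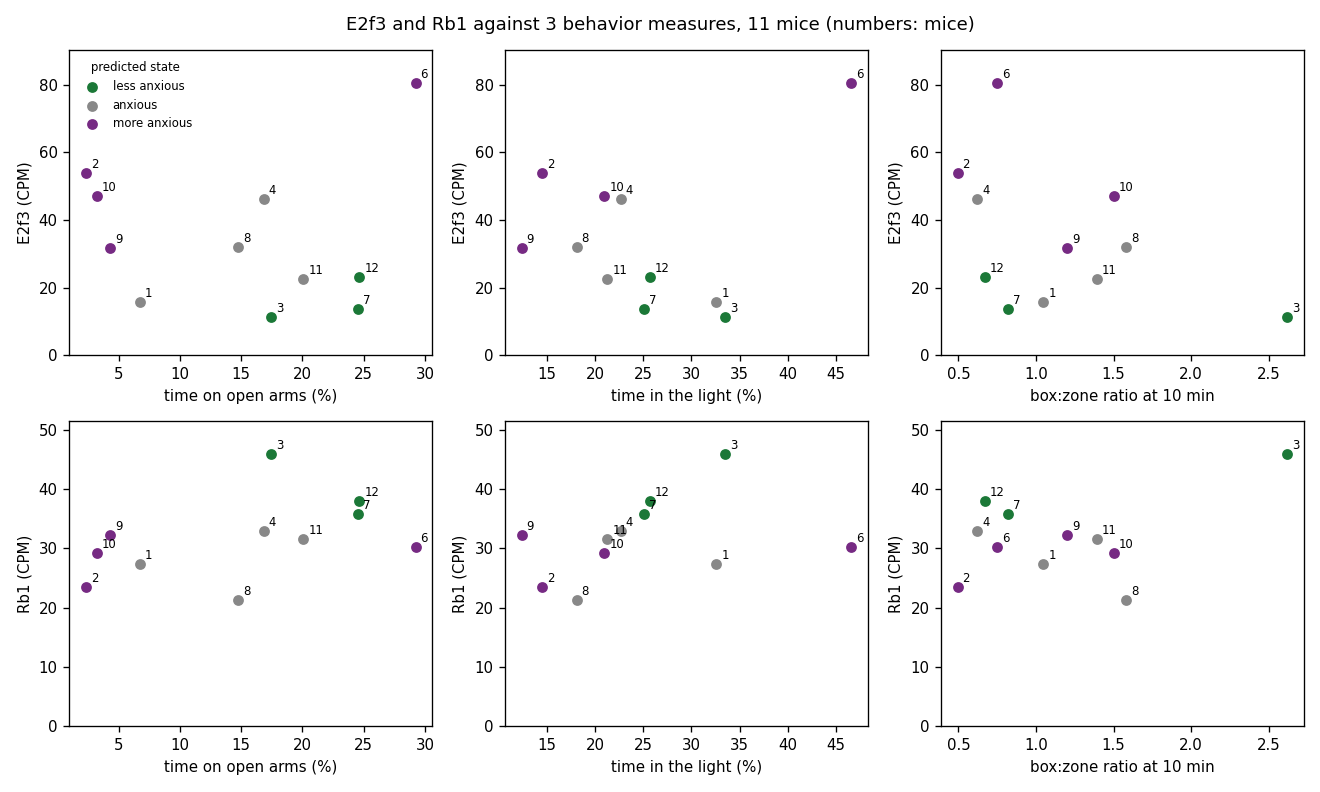
E2f3 (upper row) and Rb1 (lower row) in CPM against percent time on open arms, percent time in the light and the box:zone ratio at 10 min, with 1 numbered point per mouse in the color of its predicted state. Mouse 6 sits alone at the upper right of both E2f3 plots for the maze and the light box, and mouse 3 alone at the right of the ratio plots.

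Rb1 had the opposite sign to E2f3 for 5 of the 7 measures. Its slopes were positive for all 7, from 0.05 (SE 0.09) for the ratio at 3 min to 0.15 (SE 0.08) for maze entries, but they were -0.06, -0.09 and -0.09 for the ratios at 3, 5 and 10 min without mouse 3. Without mouse 2 the slope of Rb1 on entries was 0.08, and without mouse 3 those on time and distance in the light were 0.05 and 0.08. E2f7 had slopes of -0.36 (SE 0.18) for open-arm time, -0.36 (SE 0.19) for entries, -0.30 (SE 0.18) for time and -0.31 (SE 0.18) for distance in the light. On the ratio its slope was 0.30 (SE 0.20) at 3 min, -0.13 (SE 0.24) at 5 min and -0.33 (SE 0.23, adjusted p = 0.743 by edgeR) at 10 min, the last at -0.01 without mouse 3. Without mouse 9 the slope of E2f7 was -0.15 on open-arm time, -0.05 on time in the light and -0.06 on distance, and that on the ratio at 3 min was -0.21. The slopes of E2f4, E2f6 and Tfdp1 were small in log2 units, with short error bars in the plot of slopes. Those of Tfdp1 were -0.060 (SE 0.036) for entries and -0.054 (SE 0.036) for open-arm time, and 0.006 (SE 0.041) for the ratio at 3 min.

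**Figure D3:**
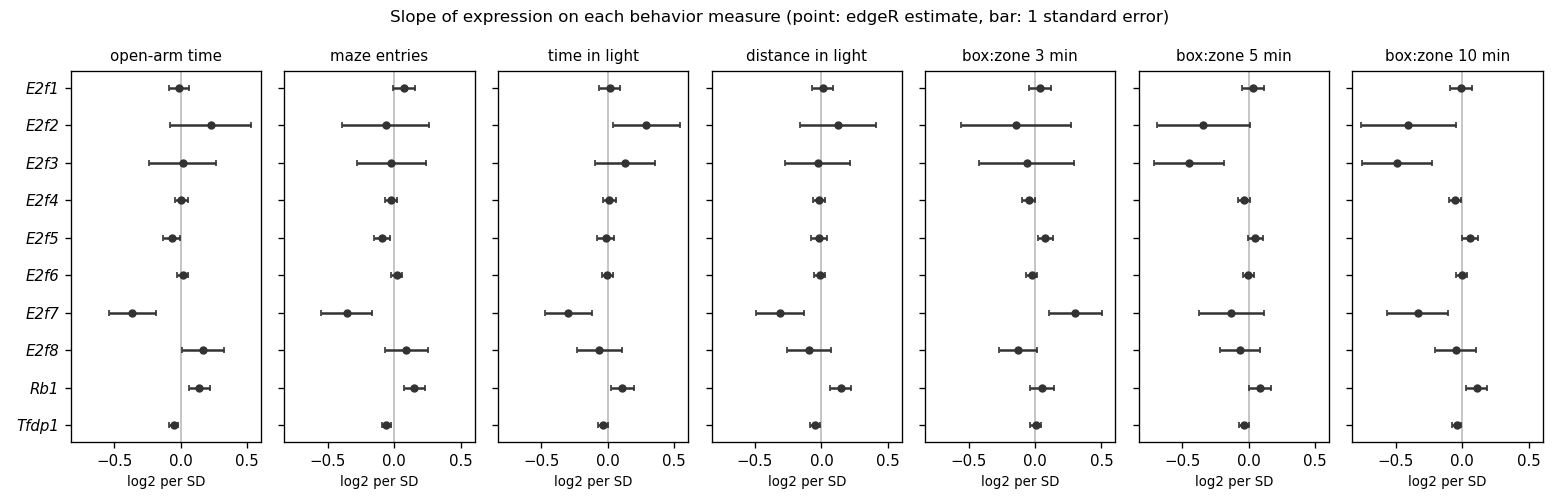
Fitted slope of each member on each of the 7 behavior measures, in log2 expression per SD of the measure, with a bar of 1 standard error on either side. E2f2, E2f3 and E2f7 have the widest bars, and no member was called for any measure.

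The genes whose pattern was most like E2f3 were ranked by Pearson correlation of log2 CPM over the 11 mice, among 15837 genes with a mean of at least 1 CPM. The highest were Gclm (r = 0.937), a subunit of the enzyme of glutathione synthesis, Akt1s1 (0.905), an inhibitory subunit of the mTOR complex, Rnf207 (0.883), Gm16861 (0.881) and Trpt1 (0.881). The lowest were 1700008O03Rik (-0.940), Fam210a (-0.896) and Gm10863 (-0.892), against a median of -0.022 over all genes. Gclm averaged 33.2 ± 2.85 CPM in less anxious, 36.1 ± 5.27 in anxious and 45.3 ± 4.44 in more anxious mice, and Akt1s1 25.4 ± 4.21, 35.1 ± 7.26 and 44.8 ± 3.29 CPM. Of the 7 other members that passed 1 CPM, which left out E2f2 and E2f8, Tfdp1 was nearest to E2f3 (r = 0.558), followed by E2f4 (0.397), E2f7 (0.271), E2f6 (0.158), E2f5 (-0.063), E2f1 (-0.085) and Rb1 (-0.518). These are extremes of many correlations over few mice that share the group differences, and they carry no test.

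The other genes of the pathway were read in 7 lists, all of whose genes were tested. EdgeR called 0 genes of any list for the groups or any of the 7 measures, and DESeq2 called 3, named with their lists. Over all genes DESeq2 called 0.0688% to 1.30% by comparison. In edgeR, 0 to 4 genes of a list had an unadjusted p under 0.05 in any comparison, at most 4 of 10 genes of the E2F6 complex and 4 of 30 S phase targets, both for maze entries, where 6.97% of all genes did. The 30 S phase targets, which E2F proteins are known to drive, split into 11 above and 19 below 0 for more against less anxious, with a median log2 fold change of -0.036 against 0.0036 over all genes. Pcna, the replication clamp, averaged 39.3, 44.2 and 40.2 CPM in less anxious, anxious and more anxious mice, Dnmt1, the maintenance DNA methyltransferase, 54.7, 56.7 and 55.4 CPM, and Rrm1, of ribonucleotide reductase, 13.9, 12.0 and 12.6 CPM. None of the 30 reached an unadjusted p under 0.05 across the groups in edgeR. For the behavior measures the list's medians lay between -0.036 and 0.033 log2 per SD.

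Partners of E2F and of the pocket complex numbered 12, with 7 above and 5 below 0 and a median of 0.032. Rbbp4, a histone-binding subunit, averaged 101 CPM, the pocket protein gene Rbl2 41.1 CPM and the deacetylase gene Hdac1 29.6 CPM. Rbbp4 was called by DESeq2 for the ratio at 3 min (0.21 log2 per SD, adjusted p = 0.00196), against an adjusted p of 0.168 by edgeR. Rbbp4 ran from 77.9 to 131 CPM over the 11 mice, and its means were 99.5 ± 28.0, 102 ± 8.47 and 101 ± 14.6 CPM by group.

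Upstream of Rb1, the 9 cyclins and kinases split into 4 above and 5 below 0, with a median of -0.0020. Ccnd2, a D-type cyclin, ran from 13.5 to 182 CPM over the mice, with a fitted log2 fold change of 0.996 ± 0.737 (SE). Its means were 58.8 ± 46.8 (SD) in less anxious, 94.6 ± 54.5 in anxious and 127 ± 64.8 CPM in more anxious mice. In the same order Ccnd1 averaged 79.9, 88.3 and 76.5 CPM and Cdk4 37.7, 40.1 and 38.5 CPM. The 7 kinase inhibitors were all above 0, with a median of 0.31 against 0.0036 over all genes. Only 5 of the 7 had a mean of at least 1 CPM. Among them Cdkn2d was at 0.02 ± 0.11 (SE), Cdkn1b at 0.29 ± 0.15 and Cdkn1c at 0.52 ± 0.24 on the log2 scale. None of the 7 inhibitors and none of the 9 cyclins and kinases reached an unadjusted p under 0.05 for the groups.

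The 10 genes of the E2F6 complex split evenly into 5 above and 5 below 0, with Cbx3 at 0.12, Yaf2 at 0.30 and Mga at -0.19 on the log2 scale. Ring1, a polycomb ubiquitin ligase of that complex, averaged 33.1 ± 1.49, 36.3 ± 2.82 and 47.4 ± 4.84 CPM and was called across the groups by DESeq2. Of 9 genes of apoptosis and p53, 6 were above 0, with Apaf1 at 0.14, Trp53 at -0.02 and Casp9 at -0.06. Bbc3, which encodes the cell death protein Puma, averaged 3.47 ± 0.47, 4.85 ± 0.93 and 6.56 ± 1.32 CPM and was the other gene called across the groups by DESeq2. Of 6 ubiquitin ligase genes that act on E2F or Rb1, 4 were above 0, with Fzr1 at 0.16, Uhrf2 at -0.01 and Mdm2 at -0.09. The groups behind the calls of Ring1 and Bbc3 were drawn from these libraries, so those calls are a description.

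**Figure D4:**
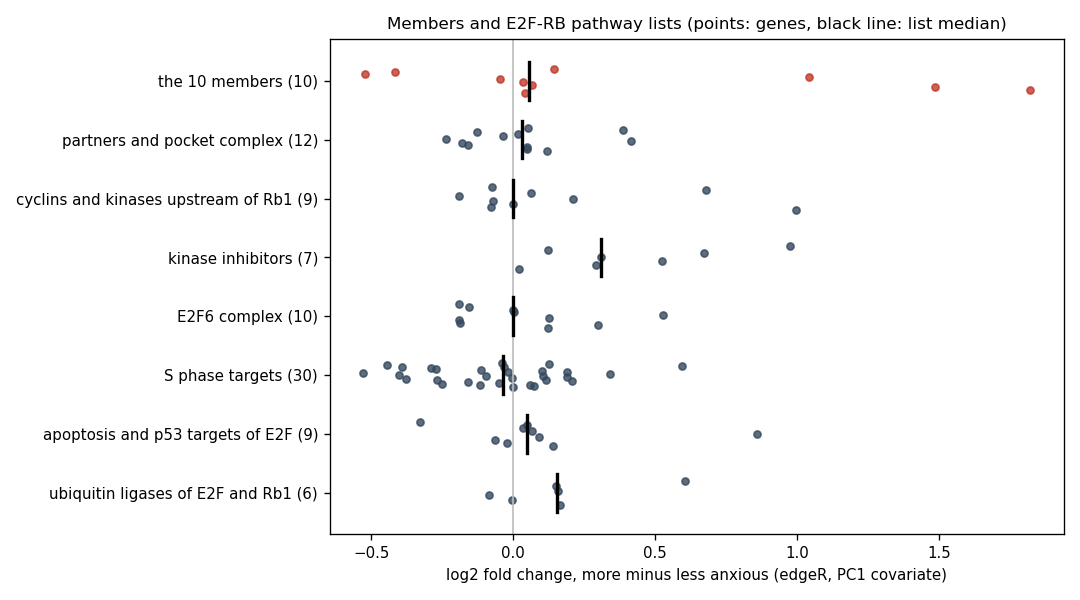
Fitted log2 fold change of more against less anxious (horizontal axis) for each gene of the 10 members and of 7 pathway lists, with the list median as a black line and the number of genes in parentheses. E2f2 (1.82), E2f3 (1.49) and E2f7 (1.04) are the 3 rightmost points of the members, and the S phase targets lie around 0 (median -0.036).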

How the data were processed

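Amygdala mRNA of 12 female mice was sequenced with a stranded kit as single-end reads, 1 library per mouse, in a single batch. The authors estimated transcript abundance with Salmon on mm10, summed it to genes and deposited these estimated counts without normalization, for 47729 genes, all of them whole numbers. The annotation release, the tool versions and the use of strand in counting are not given in the sources used here. Names and coordinates came from GENCODE M21 (GRCm38), which held 47310 of the genes. Predicted state and behavior came from the labels. The members, lists and tests were chosen with earlier results of these data known.

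Genes with at least 10 reads over the mice in a fit were kept. CPM used edgeR's TMM factors, and log2 CPM for correlations a prior count of 2. The main tests were edgeR's quasi-likelihood F-tests (robust), two-sided, of the 3 groups with the PC1 score of variance-stabilized counts as covariate, and of each standardized behavior measure without covariates. Benjamini-Hochberg adjustment ran over all genes tested, and adjusted p under 0.05 was called. Mouse 4 lacked the ratio at 3 min and was dropped there. The study's methods used DESeq2's likelihood ratio test, run here as an alternative. An adjusted p that DESeq2 left out was not replaced. Other alternatives were RLE size factors, no filter, no covariate, ranks of the measure, mouse 5 included and each mouse left out. The PC1 score came from all mice with a predicted state and was not recomputed when a mouse was left out. Named genes were the members, the 3 genes of each list with the highest mean CPM, every called gene, and the 5 highest and 3 lowest correlations with E2f3. Ring1, Bbc3 and Rbbp4 were also named because DESeq2 called them, a choice made after their values were seen, which held for Lpar6, Rcbtb2 and the other overlapping genes as well. The tests were tested on simulated data. Over 66 pairs of libraries the lowest mean chi-square per gene was 19.3, so no library was a copy of another. Fits ran in R 4.3.3 with DESeq2 1.42.0 and edgeR 4.0.16. Tables and plots were made in Python 3.11.15 with matplotlib 3.10.9, pandas 2.3.3 and numpy 2.4.6.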

Additional observations from a re-analysis of the deposited data

How the results depend on the processing

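For more against less anxious, the log2 fold changes of E2f2, E2f3, E2f4, E2f7 and Tfdp1 stayed above 0 and those of E2f6, E2f8 and Rb1 below 0 under the alternatives run, with E2f3 at 1.01 to 1.88 over the fits that left out a mouse. E2f1 (-0.10 to 0.21) and E2f5 (-0.07 to 0.19) crossed 0. No member was called for a behavior measure in any of them. For the groups, DESeq2 called 1 member (E2f3). Counts of called genes were small and moved by setting. For the groups, 9 genes were called without the filter, 197 by DESeq2, 0 without the covariate and 0 to 4 with a mouse left out. For time in the light the counts were 4, 15, 1 with mouse 5, 0 on ranks and 0 to 16 (16 without mouse 6). For distance, DESeq2 called 26, and 0 to 14 were called with a mouse left out (14 without mouse 6). For open-arm time 1 was called with RLE factors, 1 without the filter, 43 by DESeq2, 1 with mouse 5 and 0 to 3 with a mouse left out, and for maze entries 45 by DESeq2 and 0 to 5. For the ratio at 3 min the counts were 11 without the filter, 161 by DESeq2 and 1 to 6, at 5 min 7, 43, 6 with mouse 5, 0 on ranks and 1 to 5, and at 10 min 10, 111, 0 on ranks and 1 to 9. The E2f3 slope changed sign on ranks for time in the light (-0.0335), open-arm time (-0.0236) and entries (0.0846), and with mouse 5 for distance (0.0692). With a mouse left out, E2f3 slopes ran from -0.61 to 0.23 for time in the light, -0.60 to 0.11 for distance, -0.42 to 0.13 for open-arm time, -0.26 to 0.30 for entries (in these 4 the lowest without mouse 6 and the highest without mouse 2) and -0.29 to 0.15 at 3 min (the highest without mouse 3), and kept their sign at 5 min (-0.53 to -0.20) and 10 min (-0.59 to -0.20). E2f7 slopes ran from -0.21 (without mouse 9) to 0.44 at 3 min and -0.38 to 0.15 (without mouse 3) at 5 min, and Rb1 slopes from -0.0577 to 0.113 at 3 min, -0.0912 to 0.149 at 5 min and -0.0864 to 0.150 at 10 min (the lowest of each without mouse 3). The cause was not tested. No paired analysis was possible because each mouse belonged to 1 group and the replicate numbers only named mice. Depth limits E2f2 and E2f8 most, with as few as 8 reads in a mouse.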

Other observations

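Mouse 5, which has no predicted state and was set aside by the study as an outlier, is given here in CPM without TMM factors, beside the range of the 11 other mice on the same scale. E2f3 was at 13.2 CPM (432 reads), near the lower end of 11.4 to 80.7, and Rb1 at 42.4 CPM, near the upper end of 21.4 to 45.7. E2f2 (0.184 CPM on 6 reads, against 0.216 to 3.25) and E2f5 (8.54 CPM, against 8.96 to 12.9) were below all other mice, and E2f6 (25.5 CPM, against 20.96 to 25.3) was above them. E2f1 (6.98 CPM), E2f4 (17.1), E2f7 (1.77), E2f8 (0.306) and Tfdp1 (40.4) lay within the range of the others. No group is assigned to mouse 5 from these values.

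Several genes of the pathway varied widely between mice without a call. Mcm2, a subunit of the replicative helicase, ran from 1.67 to 10.1 CPM and Chek1, a checkpoint kinase, from 1.11 to 5.30 CPM. The cyclin-dependent kinase Cdk6 ran from 1.91 to 7.76 CPM, and Apaf1, of the apoptosome, from 15.1 to 44.6 CPM. These 4 were chosen after their values were seen.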
